A study of Mus musculus with 69 samples.

Results

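The kidneys of 6 nephritic and 7 young female NZB/W F1 mice collected at ZT12, the time of lights off, were compared by RNASeq of whole perfused kidney. They are 13 of the 69 libraries of the series, chosen as the original libraries with a ZT12 label. The young mice were aged 12 weeks. The nephritic mice were aged 30 to 45 weeks and were taken 2 to 3 weeks after the onset of proteinuria, while blood urea nitrogen was still low. No agent was given to either group, and both were kept in a cycle of 12 h light and 12 h dark. Age and disease cannot be told apart in this comparison. All mice are of one hybrid strain, and a whole kidney holds every cell type of the organ, so fewer cells of a type and less RNA per cell cannot be told apart either. The labels name each mouse once, and p-values measure the spread between mice.

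NZB/W F1 mice develop an autoimmune nephritis in which immune complexes lodge in the glomeruli, leukocytes enter the interstitium and the tubules are damaged. The kidney also carries its own circadian clock. The activators Bmal1 (Arntl), Clock and Npas2 drive the Per, Cry and Rev-erb (Nr1d1, Nr1d2) repressors through E-box elements, and Rev-erb and ROR proteins act on Arntl and Npas2 through RORE elements. In a normal mouse kidney lights off lies near the trough of Arntl and near the height of the Per genes, and the clock times many transport and metabolic genes of the tubule.

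The labels do not give the sequencing set of a mouse. It was taken here from the start of the mouse's name (CR and HIL for Set 1, ZT and RX for Set 2), so the 2 sets are inferred. Set 1 held 2 nephritic mice (HIL5RU and HIL5LL) and 3 young mice, and Set 2 held 4 nephritic and 4 young mice. Total counts ranged from 25257530 to 33900461 in young mice and from 26596500 to 37771234 in nephritic mice. Levels are given as CPM, the count of a gene scaled to the size of its library with TMM factors, which compares mice and not genes, and the groups were compared with edgeR's quasi-likelihood test with the set as a covariate. Calls are genes with an adjusted p of 0.05 or less. In 3 young Set 2 libraries (ZT12RL, ZT12LU and ZT120) the 9 markers of adrenal cortex and medulla summed to 233 to 2079 CPM, against 4.17 to 8.91 CPM in the other 10 libraries. The library of nephritic mouse RX11RU was sequenced again, and the repeat differed from it by a median of 0.258 log2 units per gene, more than from the libraries of nephritic mice RX9RL (0.189), RX10RL (0.193) and RX8RU (0.198) and of young mice ZT12RU (0.236), ZT12RL (0.238) and ZT12LU (0.249). Which of the libraries named RX11RU is of that mouse is therefore in doubt, and 7513 genes were called without the original. The repeat of young mouse ZT12RU was nearest its own original (0.0902). The 29 proximal tubule genes, which mark kidney, summed to 22320.0 CPM or more in young mice and to 4440.0 CPM or more in nephritic mice. Of 7 red cell markers listed, 5 haemoglobin genes were at 0 in every library, so no amount of blood is read from them.

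Of 15893 genes tested, 7141 were called (44.9%), 3848 higher (24.2%) and 3293 lower (20.7%) in nephritic mice. A change of at least 2-fold was reached by 2309 genes (14.5%), of which 1710 were higher and 599 lower. The balance of directions depended on the tool and scaling, with 3897 higher and 3955 lower in DESeq2 and 4472 and 2825 with upper quartile factors. The median log2 change over all genes tested was 0.01. All nephritic mice lay above all young mice in 1890 genes (11.9%) and below all of them in 1110 genes (6.98%). Counts of list members at ZT12 given below stand against these shares of all genes. Most genes varied more between nephritic mice. The median SD of log2 CPM over genes was 0.170 in young and 0.286 in nephritic mice, and 79.1% of genes had the larger SD in nephritic mice. On the first principal component, which held 66.7% of the variance, young mice lay between -42.4 and -37.9, the Set 2 nephritic mice between 6.66 and 40.8, and the Set 1 nephritic mice at 77.6 and 109.8. On the second, which held 13.4%, young mice spread more widely (-39.96 to 23.9) than nephritic mice (-15.2 to 20.9), with the 3 libraries with adrenal RNA lowest.

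The size of the change differed between the sets. The group by set term passed for 7221 genes (45.4%). Among the 7141 called genes the median absolute log2 change was 1.06 in Set 1 and 0.44 in Set 2, and 7089 of them had the same sign in both sets. A call made over both sets together favours genes of equal sign. The count of equal signs therefore does not show how often directions agree over all genes. Set 1 and Set 2 had 10153 and 5004 called genes when each was tested within a joint fit. Only 2 nephritic mice represent Set 1, so the set and these mice cannot be told apart. Values within each set are given below for many of the lists and genes.

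**Figure D1:**
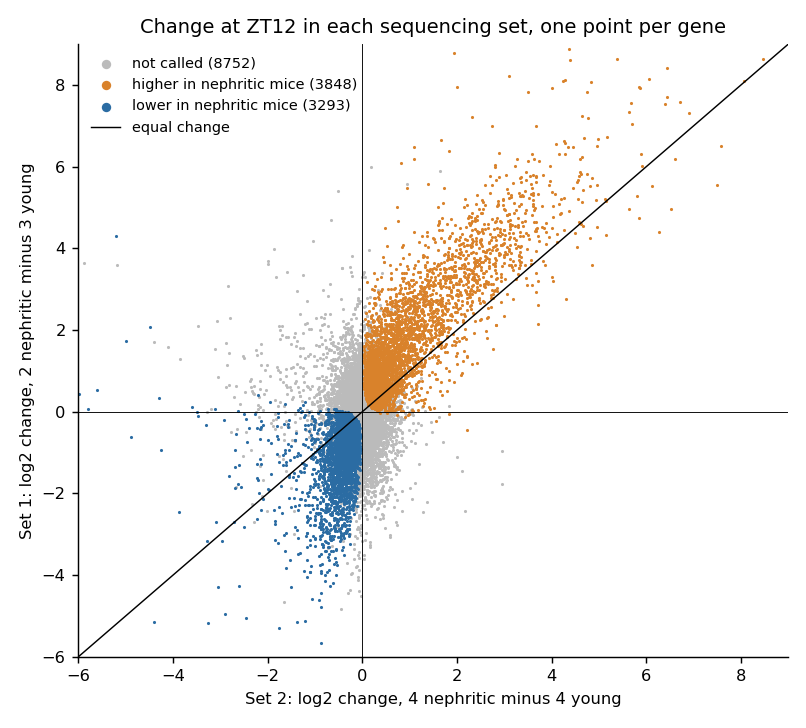
The log2 change between nephritic and young mice in Set 1 (vertical axis) is plotted against that in Set 2 (horizontal axis) for the genes tested, with 29 genes outside the axes. Called genes lie mainly in the quadrants of equal sign and far from 0 on the Set 1 axis, where their median absolute change was 1.06 against 0.44 in Set 2.

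The largest increases were in B lineage, myeloid, chemokine and tubular injury genes. Of the 10 genes with the largest rise among called genes with at least 5 CPM on average and no overlap between the groups, 9 are given here, namely Pou2af1, Ms4a1, Cd79a, Jchain, Cxcl13, Timp1, Lcn2, Ccl8 and Itgam. Pou2af1, a B cell transcriptional coactivator, ranged from 0.0326 to 0.284 CPM (median 0.168) in young mice and from 8.91 to 101.7 CPM (median 18.1) in nephritic mice. Its log2 change was 7.52 (SE 0.56, adjusted p = 1.78e-06). Jchain, the joining chain of IgA and IgM, ranged from 3.28 to 7.61 CPM (median 4.49) in young and from 158 to 2296 CPM (median 321.8) in nephritic mice, a log2 change of 6.68 (SE 0.53, adjusted p = 2.37e-06). Both genes were near 0 or low in every young mouse, and HIL5RU was the highest nephritic mouse for both. That every nephritic mouse was higher follows from the rule, which required no overlap.

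The B cell and plasma cell markers gave 12 of 12 members higher, with a median log2 change of 4.27 against 0.01 over all genes. Cd79a, a chain of the B cell receptor, ranged from 0.157 to 0.523 CPM in young mice (median 0.294). In nephritic mice it was 12.8 to 14.6 CPM in RX8RU, RX9RL and RX10RL, 28.5 in RX11RU, 33.8 in HIL5LL and 134.6 in HIL5RU. Its log2 change was 6.90 (SE 0.50, adjusted p = 1.59e-06), with 7.92 in Set 1 and 5.85 in Set 2. Ms4a1, a surface protein of B cells, changed by 7.05 (SE 0.55).

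T cell markers were also higher in 12 of 12 members (median 3.83), and the groups did not overlap for any of them. Over all genes 24.2% were higher, and in 11.9% all nephritic mice lay above all young mice. Pdcd1 and Ctla4, inhibitory receptors of activated T cells, changed by 5.30 (SE 0.49, adjusted p = 5.67e-06) and 5.13 (SE 0.52, adjusted p = 1.10e-05). Il7r, the interleukin 7 receptor, changed by 4.73 (SE 0.36) and Cd3d, a part of the T cell receptor complex, by 4.14 (SE 0.33). Pdcd1 was at most 0.229 CPM in young mice and 1.58 to 10.2 CPM in nephritic mice, so its rise started from a level near the detection limit.

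Macrophage and myeloid markers were higher in 16 of 16 members tested (median 2.91), and S100a8 and S100a9 had too few counts to test. Itgam, the integrin CD11b, ranged from 0.627 to 1.89 CPM in young mice (median 1.21) and from 29.3 to 92.4 CPM in nephritic mice (median 38.3). Its log2 change was 5.20 (SE 0.29, adjusted p = 8.56e-07), 5.55 in Set 1 and 4.95 in Set 2. Itgax (CD11c) changed by 3.87 (SE 0.30) and the fractalkine receptor Cx3cr1 by 3.26 (SE 0.27). Of the 3 leukocyte lists the summed level of the myeloid markers was 107 to 162 CPM in young and 696 to 2190.0 CPM in nephritic mice, of the T cell markers 7.37 to 12.0 and 47.8 to 259.7 CPM, and of the B cell and plasma cell markers 37.0 to 46.5 and 264.8 to 3062 CPM.

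Genes of tubular injury and repair were higher in 16 of 18 members (median 1.64), and none was lower. Lcn2, the iron-binding injury marker NGAL, was 1.57 to 4.23 CPM (median 1.97) in young mice. In nephritic mice it was 16.002 CPM in RX10RL, 39.6 in RX9RL, 50.9 in RX11RU, 133.5 in RX8RU, 310.1 in HIL5RU and 419.9 in HIL5LL. Lcn2 was picked among genes without overlap, so every nephritic mouse was above every young mouse. The 2 Set 1 nephritic mice were highest (log2 change 5.77, SE 0.60, adjusted p = 1.22e-05, with 7.19 in Set 1 and 4.78 in Set 2). Timp1, an inhibitor of matrix metalloproteinases, changed by 5.85 (SE 0.74), Krt20 by 4.17 (SE 0.50) and the adhesion molecule Vcam1 by 3.30 (SE 0.27).

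Of 18 cytokines and chemokines, 17 had enough counts to test and all 17 were higher, with no overlap between the groups (median 3.43). Among all genes 24.2% were higher and 11.9% lay wholly above the young mice. Cxcl13, which attracts B cells, was 0.130 to 0.851 CPM (median 0.336) in young and 9.32 to 121.8 CPM (median 15.8) in nephritic mice, a log2 change of 6.10 (SE 0.60, adjusted p = 8.45e-06), 7.83 in Set 1 and 4.74 in Set 2. Ccl8, a chemokine of monocytes, changed by 5.34 (SE 0.36) and Ltb, lymphotoxin beta, by 4.37 (SE 0.44). Cxcl10, which is induced by interferon, was 2.72 to 6.17 CPM in young and 9.91 to 46.3 CPM in nephritic mice and changed by 2.58 (SE 0.21, adjusted p = 2.76e-06).

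Interferon-stimulated genes were higher in 20 of 22 members (median 1.37). Zbp1, a sensor of nucleic acids, changed by 2.96 (SE 0.34), Oas2 by 2.75 (SE 0.30) and Mx1 by 2.74 (SE 0.35). Isg15, a ubiquitin-like protein, was 2.28 to 4.32 CPM in young and 5.65 to 26.1 CPM in nephritic mice (log2 change 1.97, SE 0.31, adjusted p = 3.08e-04). Ifit1 changed by 1.52 (SE 0.23). The median change of the list was 2.06 in Set 1 and 0.81 in Set 2.

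To show promoter letters of interferon and cytokine genes, RefSeq promoter windows of GRCm38.p6 were searched over 250 bases before the start site. A pair of interferon response (ISRE) repeats, spelled GAAANNGAA on either strand, was found in 10 of 16 interferon-stimulated genes with a window, against 7.83% of the 12175 tested genes with one. The kappaB letters GGGANTTCC were found in 2 of 13 cytokine genes and in 2.09% of all. Capitals mark the matches, each stretch runs 5′ to 3′ on the strand of its gene, and neighbouring matches overlap. Isg15 is shown from chr4:156200851-156200921 (minus strand), Ifit1 from chr19:34640755-34640838 (plus strand) and Cxcl10 from chr5:92348959-92349017 (minus strand).
Isg15: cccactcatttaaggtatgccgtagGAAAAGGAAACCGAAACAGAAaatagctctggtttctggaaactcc
Ifit1: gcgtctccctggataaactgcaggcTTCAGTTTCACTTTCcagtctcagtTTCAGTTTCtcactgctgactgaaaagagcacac
Cxcl10: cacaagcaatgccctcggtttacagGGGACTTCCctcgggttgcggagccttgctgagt
A match is a description of letters and not a measured binding site.

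Antigen presentation genes were higher throughout their lists, with 8 of 8 MHC class II members (median 2.43) and 10 of 10 MHC class I and immunoproteasome members (median 1.74). Ciita, the class II transactivator, was 2.31 to 4.01 CPM in young and 9.58 to 46.7 CPM in nephritic mice (log2 change 2.61, SE 0.24, adjusted p = 6.00e-06). Ctss, a lysosomal protease, changed by 3.61 (SE 0.23) and H2-Eb1 by 2.53 (SE 0.31). Nlrc5, the class I transactivator, changed by 2.78 (SE 0.28) and H2-K1 by 2.07 (SE 0.34). H2 genes have near-identical relatives, and uniquely aligned reads may have been split among them. All 10 class I members also passed the group by set test, with a median change of 2.76 in Set 1 and 1.04 in Set 2.

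Of the complement genes, 11 of 15 were higher (median 1.595), against 24.2% of all genes, and the other 4 were not called. C3ar1, the C3a receptor, changed by 3.61 (SE 0.25), C1qb by 3.22 (SE 0.32) and C4b, which has a close copy in the genome, by 2.97 (SE 0.36). Matrix and fibrosis genes were higher in 24 of 27 members (median 1.35). Collagen I (Col1a1) was 11.04 to 22.6 CPM in young and 45.04 to 265.4 CPM in nephritic mice, a log2 change of 2.93 (SE 0.41, adjusted p = 1.30e-04). Col3a1 changed by 2.56 (SE 0.39), and Mmp7, a protease at 0.0810 CPM or less in young mice, was at most 1.38 CPM in nephritic mice.

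Proliferation genes were higher in 19 of 20 members (median 3.07). Mki67, a marker of cycling cells, was 2.23 to 3.81 CPM in young mice and 22.5 to 103.5 CPM (median 42.2) in nephritic mice, a log2 change of 4.11 (SE 0.27, adjusted p = 1.05e-06). Top2a changed by 3.74 (SE 0.27) and Aurkb by 3.72 (SE 0.34). Unlike most lists, these changes were of like size in the sets, with medians of 3.30 and 2.89, and 0 of the 20 members passed the group by set test in edgeR against 45.4% of all genes. At an unadjusted p under 0.05 there was 1 in edgeR and 1 in DESeq2, none of them called by DESeq2 or limma voom.

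**Figure D2:**
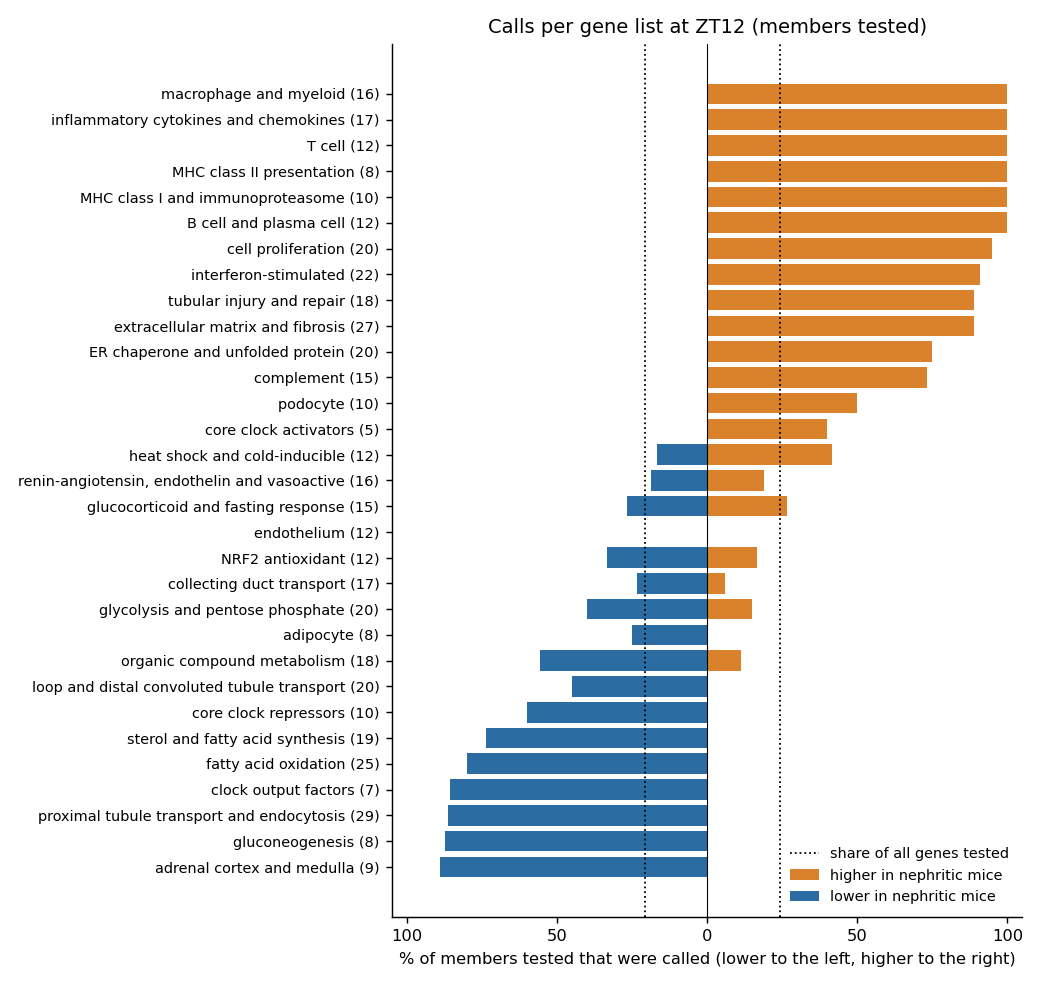
Bars give the percent of tested members of each list that were called higher (right) or lower (left) in nephritic mice, with the number tested in brackets and dotted lines at 24.2% and 20.7%, the shares of all genes. The macrophage, cytokine, T cell, B cell and both MHC lists reach all of their members, and adrenal, gluconeogenesis and proximal tubule lists have the largest shares of lower members.

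Among the lists with many lower members were those of tubular transport and metabolism. The proximal tubule list had 25 of 29 members lower and none higher (median -0.99, with -2.07 in Set 1 and -0.34 in Set 2). Slc6a19, the neutral amino acid transporter B0AT1, was 233 to 383.9 CPM (median 287.6) in young mice and lower in every nephritic mouse, at 180.04 CPM in RX10RL, 135.8 in RX11RU, 97.0 in RX8RU, 96.1 in RX9RL, 50.1 in HIL5LL and 23.9 in HIL5RU. Its log2 change was -1.80 (SE 0.36, adjusted p = 1.60e-03), -3.13 in Set 1 and -1.10 in Set 2. The dicarboxylate carrier Slc13a3 changed by -1.47 (SE 0.40), the lactate carrier Slc5a12 by -1.35 (SE 0.31) and the phosphate carrier Slc34a3 by -1.34 (SE 0.35).

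Of the 10 genes with the largest fall under the same rule, 9 are given here. Serpina6, the corticosteroid-binding globulin, was 26.1 to 59.3 CPM (median 38.0) in young and 0.898 to 7.57 CPM (median 4.03) in nephritic mice, a log2 change of -3.55 (SE 0.40, adjusted p = 2.25e-05). Ly6f changed by -3.18 (SE 0.36) and Dnase1, which degrades extracellular DNA, by -2.53 (SE 0.67). Dnase1 was 880.1 CPM or more in every young mouse and 31.2 to 734.0 CPM in nephritic mice, and its change was -5.15 in Set 1 and -1.39 in Set 2. Akr1d1 (a steroid reductase), Ugt1a2, Pvalb, Cyp2a5, Nat8f1 and Mfsd2a, a lysophospholipid transporter, changed by -2.16, -2.15, -2.13, -2.11, -2.09 and -2.04. Akr1d1 was 119.9 and 137.7 CPM in ZT12RL and ZT120, young libraries with adrenal RNA, and 36.4 to 43.8 CPM in the other young mice, still above the highest nephritic mouse at 28.7 CPM. Ly6f, Ugt1a2, Cyp2a5 and Nat8f1 have close relatives whose reads may be hard to assign.

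The loop and distal convoluted tubule list had 9 of 20 members lower and none higher, against 20.7% and 24.2% of all genes. Pvalb, a calcium-binding protein of the distal convoluted tubule, was 167 to 281.0 CPM in young and 21.8 to 110.1 CPM in nephritic mice (SE 0.33, adjusted p = 2.55e-04). Calb1, calbindin, changed by -1.54 (SE 0.22) and by the same amount in both sets, and the magnesium channel Trpm6 by -1.12 (SE 0.19). Egf, which the distal nephron secretes, was not called. It was 1956 to 4053 CPM in young mice, 759.8 to 2168 CPM in the Set 2 nephritic mice, and 140.2 and 132.3 CPM in HIL5RU and HIL5LL (log2 change -1.71, SE 0.71, adjusted p = 0.0639).

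Collecting duct genes gave 4 lower and 1 higher of 17, and the lower ones are near the 20.7% of all genes. The mineralocorticoid receptor Nr3c2 changed by -1.02 (SE 0.25, adjusted p = 5.46e-03), but in Set 2 alone it did not pass (-0.55, adjusted p = 0.0816). The anion exchanger Slc4a1 changed by -0.90 (SE 0.19). Aqp2, the vasopressin-regulated water channel, was 439.3 to 777.4 CPM in young and 530.5 to 1920.5 CPM in nephritic mice and was not called (log2 change 0.57, SE 0.27, adjusted p = 0.0947). Among 16 vasoactive genes 3 were higher and 3 lower, which is no more than the 24.2% and 20.7% of all genes. Ren1 was listed at 0 in every library, from which no level of renin is read. Edn1, endothelin 1, was 1.56 to 2.90 CPM in young and 3.64 to 26.5 CPM in nephritic mice (log2 change 2.57, SE 0.40, adjusted p = 3.08e-04). Ace, the angiotensin converting enzyme, changed by -1.07 (SE 0.39, adjusted p = 0.0385) over all mice and by -0.27 (adjusted p = 0.392) in Set 2 alone. Ace also lost its call when HIL5RU, HIL5LL, RX8RU, ZT12RU, CR3RL, CR3LU or CR3LL was left out.

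Fatty acid oxidation genes were lower in 20 of 25 members and none was higher (median -0.74, with -1.63 in Set 1 and -0.30 in Set 2). Ppara, the nuclear receptor that drives them, was 132 to 189.5 CPM in young and 16.2 to 128.4 CPM in nephritic mice (log2 change -1.42, SE 0.36, adjusted p = 6.95e-03). Acaa1b, a peroxisomal thiolase, changed by -1.56 (SE 0.34). The gluconeogenesis list had 7 of 8 members lower. Pck1, its rate-limiting enzyme, was 4994 to 8188 CPM in young mice, 2191 to 5384 CPM in Set 2 nephritic mice, and 241.6 and 229.3 CPM in HIL5RU and HIL5LL. It changed by -2.05 (SE 0.63, adjusted p = 0.0179), -4.78 in Set 1 and -0.88 in Set 2. Pcx and Fbp1 changed by -1.39 (SE 0.33) and -1.26 (SE 0.37), while G6pc, glucose-6-phosphatase, was not called (-1.23, SE 0.60, adjusted p = 0.107). The median of this list was -2.61 in Set 1 and -0.45 in Set 2.

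**Figure D3:**
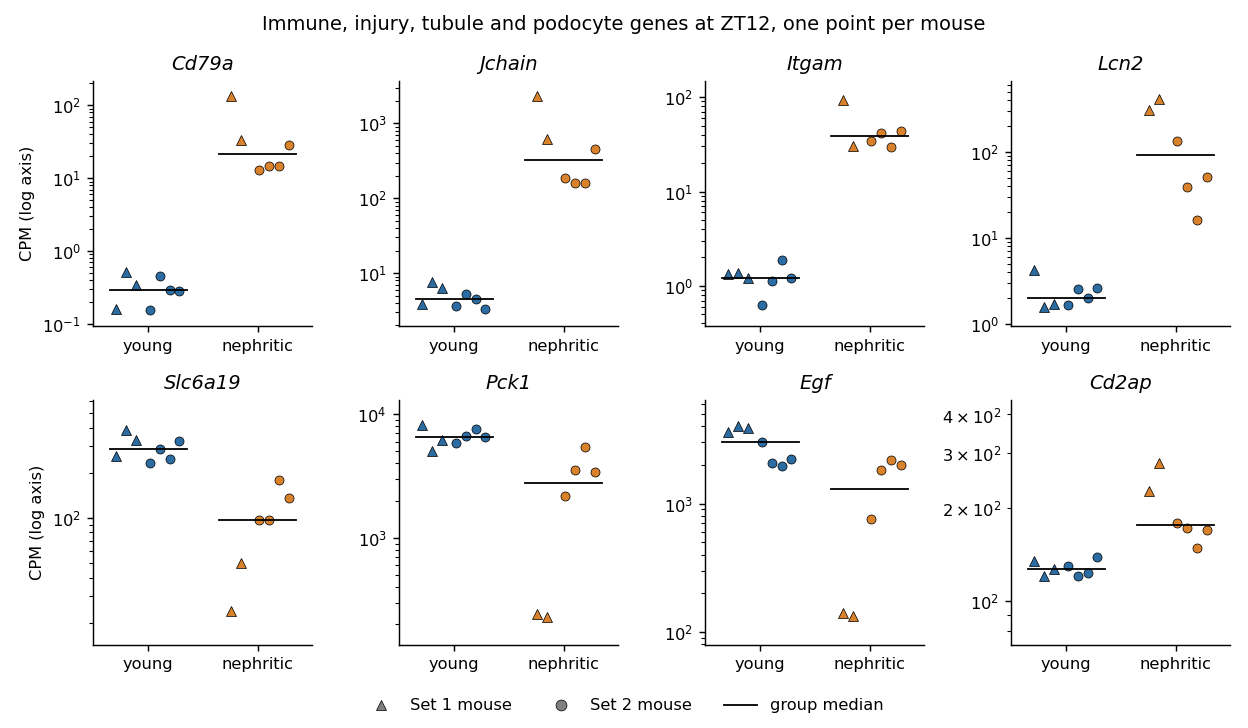
Each point is 1 mouse, in CPM on a log axis, with triangles for Set 1, circles for Set 2 and a line at the group median. Cd79a, Jchain, Itgam and Lcn2, picked among genes without overlap, are higher in all 6 nephritic mice, and Slc6a19 is lower in all 6. For Pck1 and Egf the 2 Set 1 nephritic mice (241.6 and 229.3, 140.2 and 132.3 CPM) lie far below the other nephritic mice.

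Sterol and fatty acid synthesis genes were lower in 14 of 19 members (median -0.73). Insig1, a sterol sensor protein, changed by -1.47 (SE 0.23, adjusted p = 3.07e-04). Fasn, fatty acid synthase, ranged from 140.4 to 1198 CPM in young mice and from 114.0 to 293.9 CPM in nephritic mice and changed by -1.42 (SE 0.34), with -0.33 in Set 1 and -2.11 in Set 2. Its groups overlapped. Cyp51 of sterol synthesis changed by -1.30 (SE 0.39) and did not pass in Set 2 alone (adjusted p = 0.0525). The adipocyte markers had 2 of 8 members lower, near the 20.7% of all genes. Plin1 was among them (log2 change -1.51, SE 0.47, adjusted p = 0.0201). The 8 markers summed to 762.6 to 1034 CPM in the 3 young libraries with adrenal RNA. Their sums were 183.5 to 459.4 CPM in the other young mice and 108.7 to 353.0 CPM in nephritic mice. The part of fat and adrenal tissue in the sterol and fatty acid changes was not tested beyond leaving those 3 libraries out. After that Plin1 lost its call and the calls of Insig1, Fasn and Cyp51 were kept. The only young Set 2 mouse left was then ZT12RU, with Plin1 at 25.7 CPM and Fasn at 638.0 CPM. In the young Set 1 mice they were 6.83 to 9.12 CPM and 140.4 to 175.3 CPM. Leaving the 3 libraries out therefore cannot tell fat from disease for Fasn.

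The adrenal markers themselves were called lower in 8 of 9 members. Cyp11b1, an enzyme of corticosterone synthesis, was 335.4, 42.2 and 348.2 CPM in ZT12RL, ZT12LU and ZT120, at most 0.314 CPM in the other young mice and at most 0.560 CPM in nephritic mice. The catecholamine enzyme Th was 3.15 to 25.2 CPM in the same 3 libraries and 0 in the other 10. These calls therefore rest on 3 young libraries, and no fold is given.

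Other lists moved in part, set against 24.2% higher and 20.7% lower among all genes. Of the lists that follow, the NRF2 counts were nearest those shares. NRF2 antioxidant genes gave 2 higher and 4 lower of 12, with Hmox1, heme oxygenase, at 1.79 (SE 0.20), Slc7a11, the cystine carrier, at 1.97 (SE 0.37), catalase (Cat) at -1.06 (SE 0.26) and Sod2 at -0.78 (SE 0.18). Organic compound metabolism had 10 of 18 members lower and 2 higher, with a median of -1.75 in Set 1 and -0.14 in Set 2. The reductase Por, which serves the cytochromes P450, changed by -1.31 (SE 0.23) and Cyp2e1 by -1.49 (SE 0.32), and Cyp27b1, which makes active vitamin D, changed by 1.52 (SE 0.33). In glycolysis and the pentose phosphate pathway 8 of 20 members were lower and 3 higher, with Pfkm at -0.97 (SE 0.14) and the leukocyte hexokinase Hk3 at 2.89 (SE 0.30).

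Of 15 glucocorticoid and fasting genes 4 were higher and 4 lower, near the 24.2% and 20.7% of all genes, with a median of -1.06 in Set 1 and 0.32 in Set 2. Cdkn1a, the cell cycle inhibitor p21, changed by 2.17 (SE 0.21), and Klf9, a glucocorticoid target, by -1.18 (SE 0.42, adjusted p = 0.0365). Klf9 rested on the Set 1 nephritic mice, since it changed by -0.32 (adjusted p = 0.251) without them. Leaving out HIL5RU or HIL5LL alone gave -0.81 and -0.88, and Klf9 also lost its call when RX8RU, CR3LU or CR3LL was left out. Heat shock and cold-inducible genes gave 5 higher and 2 lower of 12, against 24.2% and 20.7% of all genes. Rbm3, a cold-inducible RNA-binding protein, was 53.6 to 80.9 CPM in young and 88.9 to 137.1 CPM in nephritic mice (log2 change 0.76, SE 0.09, adjusted p = 4.82e-05). Hspb1 changed by 1.67 (SE 0.34), Hsp90aa1 by 0.68 (SE 0.14) and the mitochondrial chaperonin Hspd1 by -0.72 (SE 0.18), which in Set 2 alone was -0.36 (adjusted p = 0.0830).

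Resident cell markers moved less. Podocyte genes gave 5 of 10 higher and none lower (median 0.40), against 24.2% and 20.7% of all genes. Cd2ap, an adaptor of the slit diaphragm, was 120.6 to 138.7 CPM (median 126.7) in young and 148.2 to 279.4 CPM (median 175.4) in nephritic mice, without overlap, and changed by 0.62 (SE 0.11, adjusted p = 7.78e-04), 0.99 in Set 1 and 0.38 in Set 2. Endothelial markers gave 0 of 12 called in edgeR, with 4 at an unadjusted p under 0.05, while DESeq2 called 3 and limma voom 2. In edgeR Kdr, the VEGF receptor, was -0.84 (SE 0.36, adjusted p = 0.0729) and Tek -0.51 (SE 0.20, adjusted p = 0.0521). Within the sets Kdr was -2.31 in Set 1 and -0.10 in Set 2. Of the red cell markers, 1 of 8 had enough counts to test.

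Clock genes of both limbs of the loop were changed at lights off. Among the activators Npas2 and Arntl were higher and the other 3 were not called, Clock and Rora among them. Of the repressors 6 of 10 and of the output factors 6 of 7 were lower, and none was higher. Over all genes 20.7% were lower and 24.2% higher. Npas2 (chromosome 1, 39193702 to 39363240, GRCm38) was 0.882 to 1.70 CPM (median 1.07) in young mice and 3.73 to 9.40 CPM (median 5.47) in nephritic mice, a log2 change of 2.39 (SE 0.26, adjusted p = 1.65e-05). Arntl (chromosome 7, 113178471 to 113314126) was 2.17 to 4.82 CPM (median 2.84) in young mice. In nephritic mice it was 6.50 CPM in HIL5LL, 8.02 in HIL5RU, 8.28 in RX10RL, 12.3 in RX11RU, 14.4 in RX9RL and 15.5 in RX8RU. The groups did not overlap for either gene, and Arntl changed by 1.69 (SE 0.23, adjusted p = 9.04e-05), 1.16 in Set 1 and 2.00 in Set 2.

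Among the repressors Ciart, which blocks Clock and Bmal1, changed most. It was 9.13 to 20.7 CPM (median 11.1) in young and 1.91 to 6.77 CPM (median 3.25) in nephritic mice, a log2 change of -1.96 (SE 0.26, adjusted p = 8.46e-05). Per3 changed by -0.93 (SE 0.15), Per1 by -0.91 (SE 0.21), Nr1d2 by -0.81 (SE 0.19) and Nr1d1 by -0.79 (SE 0.24, adjusted p = 0.0159). In Set 2 alone Nr1d2 did not pass (-0.58, adjusted p = 0.0811). Per2 was not called (-0.42, SE 0.21, adjusted p = 0.118). It was 101.8 to 123.1 CPM in young mice, 97.1 to 133.5 CPM in Set 2 nephritic mice and 34.2 and 61.8 CPM in HIL5RU and HIL5LL, so the groups overlapped in Set 2 and not in Set 1. The group by set test passed for Per2 (adjusted p = 2.17e-03) and Per1 (3.62e-03) and not for Arntl (0.0928), Npas2 (0.469), Ciart (0.368) or Dbp (0.386). Over the whole clock lists it passed for 3 of 5 activators, 7 of 10 repressors and 6 of 7 output factors, against 45.4% of all genes.

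The output factor Dbp, a PAR bZIP activator that binds D-boxes, was 63.9 to 130.9 CPM (median 73.5) in young and 8.95 to 35.2 CPM (median 19.9) in nephritic mice, and changed by -2.01 (SE 0.27, adjusted p = 8.04e-05). Its relatives Hlf and Tef changed by -1.19 (SE 0.34) and -1.04 (SE 0.18), and the deubiquitinase Usp2 by -1.20 (SE 0.24). Every nephritic mouse was below every young mouse for these 4 genes. Clock itself was not called over all mice, at 0.14 (SE 0.15, adjusted p = 0.466), but its direction differed between the sets. In the joint edgeR fit it was lower in Set 1 (-0.45, adjusted p = 0.00841) and higher in Set 2 (0.48, adjusted p = 0.00348). The group by set test passed for it (adjusted p = 8.85e-04).

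**Figure D4:**
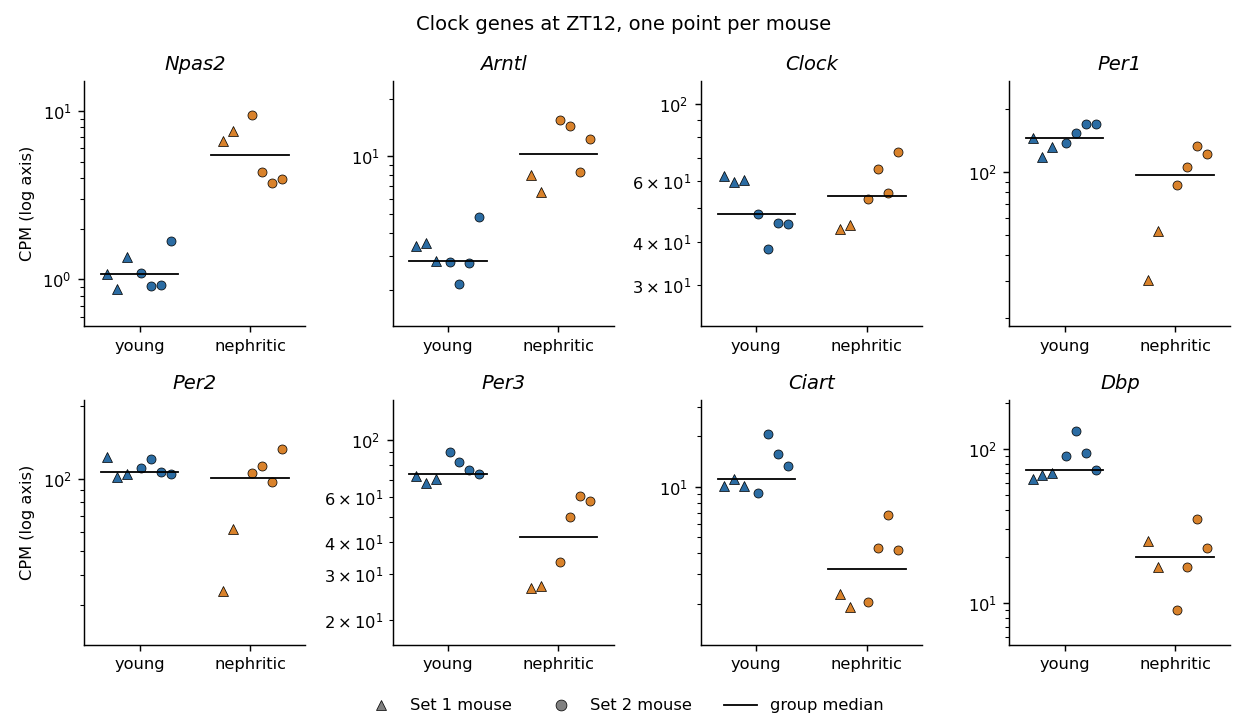
Each point is 1 mouse, in CPM on a log axis, with triangles for Set 1, circles for Set 2 and a line at the group median. Npas2 and Arntl lie above, and Per3, Ciart and Dbp below, the young range in all 6 nephritic mice, and for Per2 only the 2 Set 1 nephritic mice (34.2 and 61.8 CPM) lie below the young mice.

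Promoters of 3 genes are printed to show the clock elements of genes that fell. Letters were searched as before, with the E-box as CACGTG, the RORE as TAGGTCA and the D-box as TTANGNAA, on either strand. The E-box was found in 4 of 8 repressors with a window against 9.2% of all genes, and the D-box in 2 of 8 against 9.35%. In the output factors the E-box was found in 1 of 6 and the D-box in 0 of 6. No RORE match was found in the windows of Arntl and Npas2, where 2.23% of all genes had one, which says only that these letters are not in those 250 bases. Capitals mark 3 E-boxes in Ciart (chr3:95882242-95882369, minus strand), 1 E-box in Per1 (chr11:69098758-69098813, plus strand) and 2 D-boxes in Per3 (chr4:151044791-151044895, minus strand). The Per1 stretch lies within the gene (69095108 to 69109965), so the start site it precedes is an internal one.
Ciart: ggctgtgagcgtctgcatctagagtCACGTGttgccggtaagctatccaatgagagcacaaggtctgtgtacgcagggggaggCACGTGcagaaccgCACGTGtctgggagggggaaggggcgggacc
Per1: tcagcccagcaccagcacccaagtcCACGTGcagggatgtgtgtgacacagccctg
Per3: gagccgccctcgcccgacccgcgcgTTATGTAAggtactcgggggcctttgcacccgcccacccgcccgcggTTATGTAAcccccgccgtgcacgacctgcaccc

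To ask which changes were particular to lights off, the change at ZT12 was tested against the mean change at the other 5 time points. One fit of 57 mice was used. Set 1 mice were present only at ZT0 and ZT12, and all mice of the remaining times were of Set 2. The set entered the fit as 1 term common to both groups, so set and time are partly mixed in this test. Of 17521 genes tested, 498 lay above the other times (2.84%) and 189 below (1.08%), 687 in all. The change at ZT12 differed from that at ZT0 in 219 genes (1.25%). Most of the 687 calls were lost when the Set 1 nephritic mice were left out. Fewer mice also make calls harder to reach, and this was not tested apart. Without both Set 1 nephritic mice 51 genes differed from the other times, of which 44 were among the 687, and in Set 2 alone 80 did. Against ZT0 the count was 327 without them, of which 119 were among the 219, and 50 in Set 2 alone. Leaving out 1 mouse gave 113 genes without HIL5RU, 285 without HIL5LL, 315 without RX8RU, 1855 without RX10RL, 271, 318 and 284 without CR3RL, CR3LU and CR3LL, and 457 without ZT12RL. The 219 genes became 91 without HIL5RU, 134 without RX8RU, 567 without RX10RL and 138 without RX11RU, and 136, 123, 140 and 135 without ZT12RL, ZT120, CR3LU and CR3LL.

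Among genes with a mean of at least 5 CPM over the 57 mice, the 10 with the largest difference from the other times were Cd79a, Jchain, Sdf2l1, Npas2, Ciart, Dbp, Ltb, Mki67, Arntl and Glipr2. Npas2 changed by 1.95 more (SE 0.37, adjusted p = 0.00188) and Arntl by 1.55 more (SE 0.31, adjusted p = 0.00318) than at the other times. Ciart and Dbp changed by 1.80 (SE 0.35) and 1.75 (SE 0.33) less, that is, further down. These differences are not of ZT12 alone, since Npas2 and Arntl changed by 2.47 and 2.53 at ZT8 and by -0.50 and -0.60 at ZT0. Without the Set 1 nephritic mice Arntl differed by 1.81 (adjusted p = 0.00643), Npas2 by 1.84 (0.0353), Dbp by -1.93 (0.0135) and Ciart by -1.64 (0.0483), while Cd79a, Jchain, Ltb, Mki67 and Glipr2 no longer passed. In Set 2 alone Npas2 did not pass (1.71, adjusted p = 0.116).

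Cd79a changed by 6.80 at ZT12 and by 4.27 on average at the other times, and was higher in nephritic mice at each of them but ZT8, where it did not pass (1.27, adjusted p = 0.365). Its difference of 2.53 (SE 0.74, adjusted p = 0.0426) was 1.44 (adjusted p = 0.439) without the Set 1 nephritic mice. Jchain differed by 2.22 and 0.90 in the same fits, Mki67 by 1.62 and 1.30 and Ltb by 1.63 and 0.65. Of 20 proliferation genes 7 lay above the other times, of 12 T cell markers 5 and of 12 B cell and plasma cell markers 3, against 2.84% of all genes. None of these lists held a call without the Set 1 nephritic mice in edgeR, where 10, 3 and 1 of their members had an unadjusted p under 0.05. The median difference from the other times was 0.04 over all genes, -0.38 over the proximal tubule list and 0.09 over the interferon list.

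Chaperones of the endoplasmic reticulum, which fold secreted proteins, stood out among the genes that kept a difference. Sdf2l1, a cofactor of the chaperone BiP on chromosome 16 (17130138 to 17132383), was 7.72 to 13.5 CPM (median 11.4) in young mice. In nephritic mice it was 27.6 CPM in RX9RL, 28.0 in RX10RL, 50.0 in HIL5LL, 58.8 in RX8RU, 67.7 in RX11RU and 79.6 in HIL5RU, a log2 change of 2.29 (SE 0.26, adjusted p = 2.37e-05). It changed by 1.95 more than at the other times (SE 0.29, adjusted p = 2.48e-04), and by 1.68 more without the Set 1 nephritic mice (adjusted p = 0.00726). A list of 20 chaperone and unfolded protein genes was drawn up after these values were seen. In it 15 were higher at ZT12, against 24.2% of all genes (median 0.67 against 0.01 over all genes). Above the other times lay 12, against 2.84% of all genes, and 9 of these also did so without the Set 1 nephritic mice.

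BiP itself (Hspa5) was 427.4 to 527.8 CPM in young and 685.6 to 1429 CPM in nephritic mice and changed by 0.92 (SE 0.16, adjusted p = 6.65e-04). Manf and Creld2, secreted proteins induced by unfolded protein, changed by 1.40 (SE 0.15) and 1.36 (SE 0.16). The differences of these 3 genes from the other times were 1.13 (SE 0.25), 1.44 (SE 0.25) and 1.25 (SE 0.24). Against ZT0 alone they did not pass, at adjusted p = 0.253, 0.222 and 0.247, while Sdf2l1 did at 0.0116. The ERSE, an element of unfolded protein response promoters whose search was also chosen after these values were seen, was found on either strand in 6 of 18 list members with a window and in 0.16% of all genes. The match of Hspa5 (chr2:34772000-34772068, plus strand) is in capitals.
Hspa5: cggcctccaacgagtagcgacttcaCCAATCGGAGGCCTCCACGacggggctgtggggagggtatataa

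**Figure D5:**
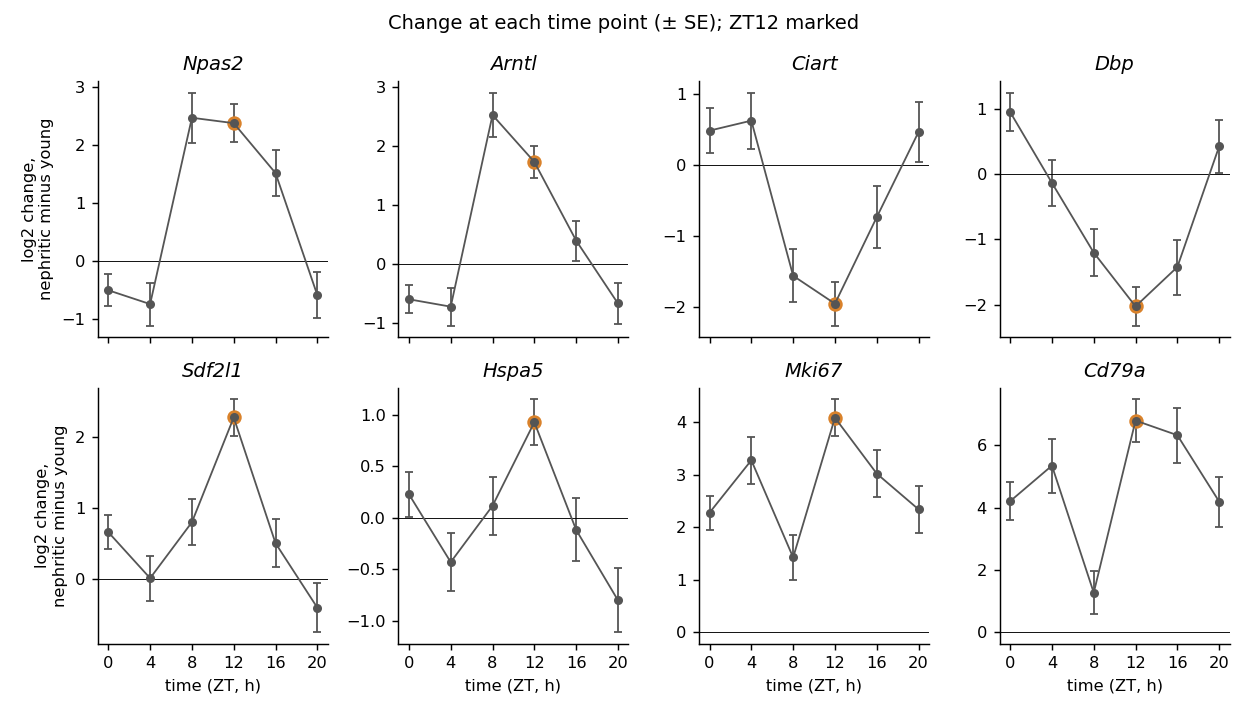
The log2 change between nephritic and young mice (± SE, vertical axis) is plotted at each time (ZT in h, horizontal axis) from the fit of 57 mice, with ZT12 marked in orange. Npas2 and Arntl are high at ZT8 and ZT12 (2.47 and 2.38, 2.53 and 1.73), Sdf2l1 peaks at ZT12 with 2.27, and Cd79a and Mki67 are above 0 at all 6 times.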

How the data were processed

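Per the labels and methods, poly-A RNA of perfused whole kidney was sequenced, and the authors aligned reads to mm10 and deposited counts of uniquely aligned reads per gene symbol. The labels name HISAT as aligner and the methods a Burrows-Wheeler aligner; whether strand was used is not given in the sources used here. Repeat libraries were kept out. Symbols with at least 100 counts over the libraries of a fit were tested with edgeR 4.0.16 (R 4.3.3; TMM, quasi-likelihood, Benjamini-Hochberg at 0.05) with the sequencing set as covariate. The time fit held 57 mice, 12 groups and the set. DESeq2 1.42.0, limma 3.58.1, other scalings and filters, each set alone and leaving out mice were alternatives. The scripts were tested on simulated data. Named genes were the 10 largest changes each way with at least 5 CPM and no overlap, the 10 largest time differences with at least 5 CPM over the 57 mice, and up to 4 members of each list by size of change with its defining genes. Members, lists and tests were chosen with earlier results of these data known. Some genes that the rule names are not reported here. Promoters are from RefSeq (GRCm38.p6). Total counts of 25257530 to 37771234 per library set the precision, and low genes carry counting error.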

Additional observations from a re-analysis of the deposited data

Results flagged for a closer look

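In 13 of 228 groups of mice examined, 1 mouse stood apart from the rest of its group by Dixon's test on log2 CPM, and chance gives about 5% of groups. In the young mice these were Zbp1 in ZT12LU (2.43 CPM), Ifit1 in CR3LL (3.45 CPM), Col3a1 in ZT12LU (40.8 CPM), Trpm6 in ZT120 (61.8 CPM), G6pc in ZT12RU (665.6 CPM), Hspd1 in ZT120 (668.6 CPM) and Por in ZT120 (476.4 CPM). In the nephritic mice HIL5RU stood apart in Itgam (92.4 CPM), Zbp1 (29.9 CPM), Ciita (46.7 CPM) and Il7r (13.4 CPM). RX8RU stood apart in Adipoq (1.22 CPM) and HIL5LL in Cyp11b1 (0.560 CPM).

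The change at ZT12 differed from the mean change at the other times in 687 genes and from that at ZT0 in 219 genes. Among genes named in the report the log2 change at ZT12 was larger by 2.53 for Cd79a, 2.22 for Jchain, 1.95 for Sdf2l1, 1.95 for Npas2, 1.78 for Il7r, 1.63 for Ltb, 1.62 for Mki67, 1.55 for Aurkb, 1.55 for Arntl, 1.48 for Glipr2, 1.44 for Manf, 1.25 for Creld2, 1.13 for Hspa5 and 0.59 for Hsp90aa1. The difference was -1.80 for Ciart, -1.75 for Dbp, -0.88 for Usp2, -0.82 for Nr3c2 and -0.52 for Pfkm. Without both Set 1 nephritic mice Usp2 (-0.58, adjusted p = 0.336), Nr3c2 (-0.50, 0.200), Pfkm (-0.33, 0.388), Hsp90aa1 (0.61, 0.0992), Il7r (1.32, 0.352) and Aurkb (1.23, 0.233) did not pass in edgeR, nor did Cd79a, Jchain, Ltb, Mki67 and Glipr2.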

How the results depend on the processing

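The 7141 calls became 7195 to 7852 under other scalings, DESeq2 and limma voom. They became 6567 with no set covariate and 7391 with the repeat libraries in place of their originals. Without the 3 young mice with adrenal RNA, an alternative chosen after seeing the data, 7892 genes were called, 3259 of them at least 2-fold. Of the 7141 calls 5968 were kept there. Set 2 alone gave 4227 changed genes, 2294 higher and 1933 lower, 1363 of them at least 2-fold. Set 1 alone gave 4423 genes at 2-fold and leaving out both Set 1 nephritic mice, an alternative chosen after seeing the data, gave 1461. Genes that differed from the other times (687) were 1046 with DESeq2, 449 with limma voom, 430 with no filter, 80 in Set 2 alone, and, in alternatives chosen after seeing the data, 1211 without the 3 young mice with adrenal RNA and 51 without both Set 1 nephritic mice. Those that differed from ZT0 (219) were 407, 99, 50 in Set 2 alone, 69 without the 3 young mice and 327 without both Set 1 nephritic mice. Leaving out 1 mouse gave 5838 to 7513 changed genes, 3131 to 4027 higher, 2707 to 3487 lower, 1839 to 2576 at 2-fold, 5788 to 8107 with a set difference, 113 to 1855 that differed from the other times (113 without HIL5RU, 1855 without RX10RL) and 91 to 567 that differed from ZT0 (the same mice). Per2 was 0.0067 in Set 2 alone and 0.0173 without both Set 1 nephritic mice, Clock -0.46 in Set 1 alone and -0.16 without the 3 young mice, Adipoq 0.46 and Star 0.0586 in Set 1 alone. The cause was not tested. No paired analysis was possible because the labels carry no replicate numbers shared between the groups.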

Other observations

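Gene families counted by symbol, chosen with these data known, add to the lists. Subunits of the mitochondrial respiratory chain were lower by a like amount in both sets, unlike the transport lists. Of 36 complex I subunits 30 were lower (median log2 change -0.43, with -0.37 in Set 1 and -0.40 in Set 2), of 17 ATP synthase genes 14 (-0.44) and of 16 cytochrome c oxidase genes 12 (-0.44), against 20.7% of all genes. Ribosomal protein genes gave 1 of 81 higher, with a median of 0.76 in Set 1 and -0.13 in Set 2. Of 326 solute carriers 134 were lower and 43 higher, and of 75 cytochromes P450 27 were lower and 10 higher. Over all genes 20.7% were lower and 24.2% higher.

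Among surface and matrix families 10 of 12 Toll-like receptors were higher and 1 lower (median 1.67), as were 21 of 39 collagens with 4 lower (0.79), 22 of 39 ADAM and ADAMTS proteases with 4 lower (0.48) and 10 of 15 keratins with 1 lower (1.00). These counts stand against 24.2% higher and 20.7% lower over all genes. The proteasome gave 3 higher and 3 lower of 37 subunits, below the 24.2% and 20.7% of all genes. The 3 higher ones were Psmb8, Psmb9 and Psmb10, immunoproteasome subunits already counted in the MHC class I list.

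The repeat library of nephritic mouse RX11RU held 30.8 CPM of Per2 against 140.0 in the original, 94.3 against 19.7 of Nr1d1 and 60.5 against 23.7 of Dbp on their common scale, while Arntl was 9.67 against 12.9 CPM. The original was used throughout.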
